A study of Mus musculus with 31 samples.

Results

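The clustered protocadherins are a family of cell surface proteins, and their genes stand in 3 neighbouring clusters, alpha, beta and gamma, on mouse chromosome 18. Members were taken from the gene symbols alone, as Pcdha, Pcdhac, Pcdhb, Pcdhga, Pcdhgb or Pcdhgc followed by a number. This gave 58 genes out of 55487 to 56980 genes listed in the count tables, with 14 in the alpha cluster, 22 in the beta cluster and 22 in the gamma cluster. The gamma cluster holds 12 A-type, 7 B-type and 3 C-type members, and with the alpha members Pcdhac1 and Pcdhac2 there are 5 C-type members.

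Clustered protocadherins are best known from neurons. Each protein has extracellular cadherin repeats that bind the same isoform on a facing cell, and a single neuron expresses its own combination of members, which lets its branches recognise one another. Every member has its own promoter in front of a large variable exon, and the alpha and gamma variable exons are spliced to constant exons that all members of the cluster share, so alpha and gamma proteins have a common cytoplasmic end. Beta members are single-exon genes without such a constant part. Promoter choice is known to depend on CTCF, cohesin and DNA methylation. In epithelial cells the family is usually weakly expressed, apart from a few members such as Pcdhgc3.

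The RNA came from Panc02 cells, a murine pancreatic adenocarcinoma line, in 3 separate experiments with 31 libraries. In the conditioned media experiment, WT spheroids embedded in Matrigel received control medium (Ctrl), medium conditioned by untreated macrophages (M0-CM) or medium conditioned by macrophages stimulated with interferon gamma and lipopolysaccharide (M1-CM), with 3 libraries each. In the culture experiment, WT and Cxcl5-/- cells were grown as a flat 2D layer or as 3D spheroids, with 3 libraries in each of the 4 groups. In the rescue experiment all cells were grown in 3D, and WT and Cxcl5-/- cells (2 libraries each) stood beside Cxcl5-/- cells that overexpressed a stabilised mutant of Hif1a (Hif1aOE Cxcl5-/-, 3 libraries) or Myc (MycOE Cxcl5-/-, 3 libraries). Hif1a and Myc are transcription factors of the hypoxia response and of cell growth, and Cxcl5 encodes a chemokine. All cells of the culture and rescue experiments received plain culture medium. The knockout was made with a lentiviral Cas9 vector and puromycin selection, the overexpression with a retroviral vector in the Cxcl5-/- cells, and whether the knockout line was 1 clone is not given in the sources used here. The labels do not say that libraries of a group came from separate cultures, so p-values measure the spread between these libraries, which may be technical.

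Between 41542533 and 78498230 counts per library were assigned to genes. Levels are given in CPM, the counts of a gene scaled to a common library size by TMM within a table, and levels of different experiments are not compared because the tables were made separately. A Cas9 edit need not lower the level of the edited transcript, so Cxcl5 counts are a weak check of the labels. Cxcl5 was measured at 34.3 CPM in 2D Cxcl5-/- against 47.3 CPM in 2D WT libraries, but at 50.6 CPM in 3D Cxcl5-/- against 27.0 CPM in 3D WT libraries, and at 38.4 against 66.0 CPM in the rescue experiment. Those 3 with 50.6 CPM are named as 3D libraries labelled Cxcl5-/- when a direction rests on them. Hif1a and Myc were lower in them than in 3D WT libraries, by log2 changes of -1.21 and -1.75, and in the Cxcl5-/- libraries of the rescue experiment they were lower than in WT, by -1.18 and -1.17. Myc averaged 490 CPM in MycOE Cxcl5-/- libraries against 21.1 CPM in the Cxcl5-/- libraries of that experiment, and Hif1a averaged 266 CPM in Hif1aOE Cxcl5-/- against 139 CPM in Cxcl5-/- libraries. Hif1a was at 258 CPM in MycOE Cxcl5-/- libraries as well, and MycOE and Hif1aOE libraries differed in it by a log2 change of -0.04 (adjusted p = 0.826), so a higher Hif1a transcript level is not particular to the Hif1aOE libraries.

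Reads in genes that such cells do not use were counted too, because low single-exon genes are exposed to them. Olfactory and vomeronasal receptor genes, used in sensory neurons, held 0.115 to 0.189 counts per kb of exon in 2D libraries, 0.934 to 1.57 in 3D WT libraries and 0.379 to 0.462 in 3D libraries labelled Cxcl5-/-. In the rescue experiment they held 5.29 to 5.4 counts per kb in WT libraries, 0.511 to 0.532 in Cxcl5-/-, 1.31 to 1.92 in Hif1aOE Cxcl5-/- and 0.91 to 1.41 in MycOE Cxcl5-/- libraries. The culture values rest on 1507 receptor genes and the rescue values on 357, so the experiments are not compared in this measure. The 3D WT libraries of the culture experiment stood apart in satellite-like predicted genes too, with 79300 to 192000 CPM against 2.86 to 18.4 CPM in 2D and 2970 to 4630 CPM in 3D libraries labelled Cxcl5-/-. The markers of pancreatic epithelium were present only in part. Krt8 averaged 147 to 569 CPM and Krt18 58.4 to 361 CPM in the culture and rescue groups, while Epcam and Cdh1 averaged at most 0.276 and 0.426 CPM.

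All 58 members are annotated on the plus strand of GRCm38 chromosome 18. The alpha cluster runs from 36930184 to 37187661, the beta cluster from 37264938 to 37524479 and the gamma cluster from 37661793 to 37841873. Between 38.0% and 54.9% of the exon length of an alpha member, and between 27.8% and 66.8% of that of a gamma member, is also exon of another member. The counting had to divide those reads among members, so values of single alpha and gamma members are uncertain and the cluster sums are firmer. In the beta cluster only Pcdhb21 and Pcdhb22 overlap, by at most 9.67% of the exon length. Values of the other beta members therefore do not rest on dividing reads of shared exons. Reads that align to more than 1 beta gene by their sequence were not examined.

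The clusters were used unequally. The alpha cluster was at the limit of detection in all 31 libraries, with at most 27 counts for any member and group sums of 0 to 3.03 CPM. Beta and gamma members reached 2669 and 9469 counts. Of the 58 members, 41 passed the filter on low counts in the conditioned media experiment, 43 in the culture experiment and 48 in the rescue experiment. The alpha cluster supplied 1, 2 and 5 of them, and members that failed the filter had at most 27 counts in any library. The gamma A member Pcdhga10 had no count in any library.

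**Figure D1:**
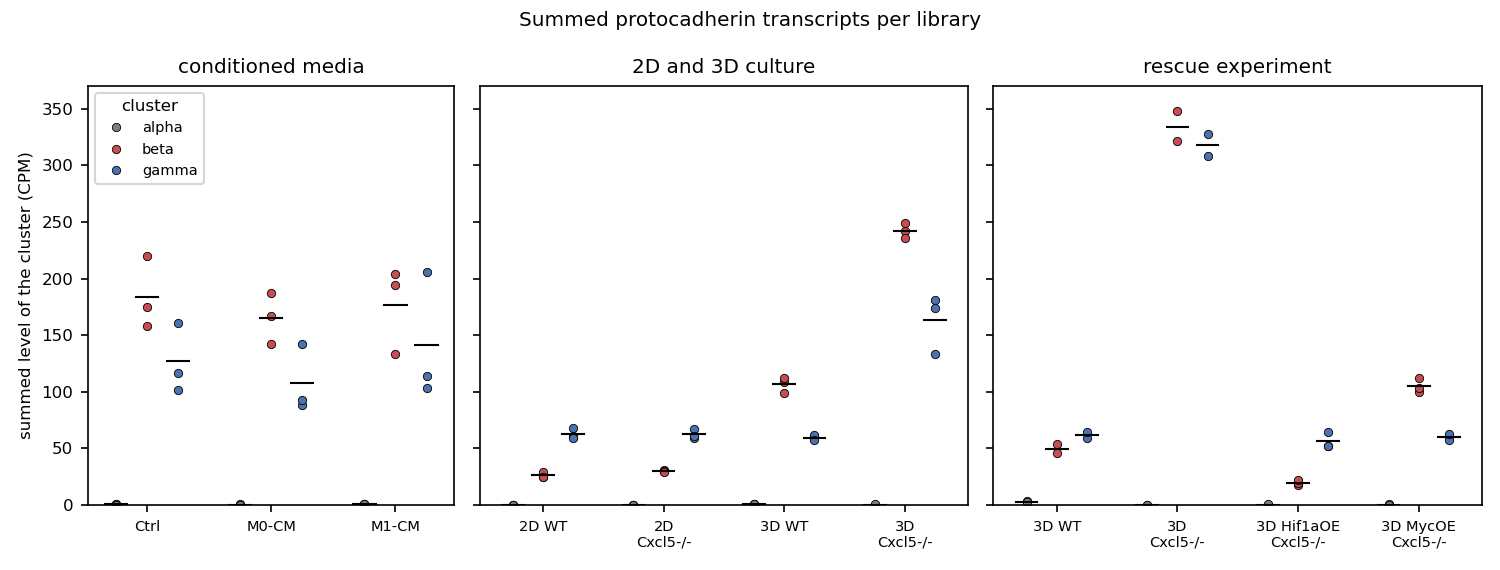
Summed level of the alpha, beta and gamma cluster in CPM on the vertical axis for every library (points, with a line at the group mean), by group on the horizontal axis, with 1 panel for each experiment. Alpha sums stay near 0 in every group, and the beta and gamma sums of Cxcl5-/- libraries grown in 3D stand above those of the WT libraries grown in 3D in both experiments that hold them.

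The first question was whether growth in 3D changes these genes in WT cells. It did so for the beta cluster. Summed beta transcripts reached 24.3, 28.8 and 25.1 CPM in the 2D WT libraries and 99.2, 109 and 112 CPM in the 3D WT libraries, 4.1 times the 2D level (26.1 ± 2.38 against 107 ± 6.67, SD, n = 3 each). The gamma cluster sum was 61.2, 67.6 and 59.2 CPM in 2D WT and 59.8, 61.4 and 57.6 CPM in 3D WT libraries. The groups overlapped for the gamma sum and were far apart for the beta sum.

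Of 20 beta members tested, 15 rose in 3D WT against 2D WT and none fell, with a median log2 change of 2.03. Across all 21367 genes tested, 22.2% rose and 22% fell (edgeR quasi-likelihood test, Benjamini-Hochberg adjusted p under 0.05), with a median of 0.00. Pcdhb9 had the largest log2 change of the beta members. It stood at 0.0963, 0.0288 and 0.0834 CPM in 2D WT and at 0.814, 1.35 and 1.25 CPM in 3D WT libraries, a log2 change of 4.03 (SE 0.48, adjusted p = 1.28e-05). All 3D values lay above all 2D values.

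Pcdhb16, the most abundant beta member per kb of exon in 2D WT libraries, gave 5.86, 6.83 and 6.76 CPM in 2D WT and 22.9, 22.6 and 26.7 CPM in 3D WT libraries. Its log2 change was 1.89 (SE 0.12, adjusted p = 2.95e-08). Pcdhb17 gave 2.93, 2.96 and 3.49 CPM in 2D WT and 12, 13.4 and 12.5 CPM in 3D WT libraries (log2 change 2.01, SE 0.12, adjusted p = 1.81e-08). Both are adhesion proteins of the same build, and neither showed any overlap between the groups. The log2 changes of Pcdhb13 and Pcdhb20 came next, at 3.75 (SE 0.91, adjusted p = 0.00547) and 3.25 (SE 0.20, adjusted p = 2.27e-08). The 5 beta members that were not called, Pcdhb3, Pcdhb4, Pcdhb6, Pcdhb8 and Pcdhb10, had log2 changes from 0.33 to 1.64, and Pcdhb1 and Pcdhb2 had too few counts to be tested.

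The gamma cluster gave a mixed picture. Of 21 members tested, 4 A-type members rose (Pcdhga1, Pcdhga2, Pcdhga5 and Pcdhga6), Pcdhga11 and Pcdhgc3 fell, and none of the 7 B-type members passed the test. Pcdhgc3 carried the bulk of the cluster, with 72.1% of the gamma level per kb in 2D WT and 49.6% in 3D WT libraries. It stood at 47.0, 47.7 and 43.5 CPM in 2D WT and 33.1, 31.8 and 28.0 CPM in 3D WT libraries, and fell by 0.57 on the log2 scale (SE 0.12, adjusted p = 0.00132). Every 3D value lay below every 2D value.

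Pcdhga6, the next most abundant gamma member per kb, moved the other way. It gave 4.39, 6.39 and 5.28 CPM in 2D WT and 12.8, 12.2 and 13.7 CPM in 3D WT libraries, with no overlap (log2 change 1.27, SE 0.16, adjusted p = 2.7e-05). Without Pcdhgc3 the gamma sum averaged 16.6 CPM in 2D WT and 28.7 CPM in 3D WT libraries, 1.73 times as much. The level sum of the cluster therefore hid members that moved in opposite directions. Pcdhga11 had 0.616, 0.374 and 0.139 CPM in 2D WT and no count in any 3D WT library, at least 6.15-fold lower against a floor of 3 counts per library (adjusted p = 0.00027), although its reads share exons with other gamma members. The alpha member Pcdhac2, which had at most 17 counts, was at 0 in 2D WT and at 0.33, 0.187 and 0.203 CPM in 3D WT libraries. Against the floor it was at least 5.05-fold higher (edgeR quasi-likelihood test, adjusted p = 0.0122). It had no count in either 2D group, so it passed the filter on low counts only through the 3D libraries. In 3D WT libraries all 14 alpha members, Pcdhac2 among them, lay under 3 times the level of reads in receptor genes. So did 6 of 22 beta and 5 of 22 gamma members. With the expected stray reads subtracted, an alternative chosen after seeing the data, 18 members rose and 2 fell of 40 tested. The share of all genes called in that fit is not given here.

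Markers of other cell types moved with 3D growth in WT cells. The 6 fibroblast markers summed to 171 to 185 CPM in 2D WT and 156 to 169 CPM in 3D WT libraries, with Col1a1, Dcn and Lum called higher and Pdgfrb lower. The 8 ductal and epithelial markers summed to 550 to 594 CPM in 2D WT and 855 to 1100 CPM in 3D WT libraries, with Krt8, Krt18, Krt19 and Sox9 called higher and Krt7 lower. The macrophage markers summed to 1.9 to 2.66 CPM and 7.35 to 8.85 CPM, with Ptprc, Cd68 and Lyz2 called higher, and among neuronal markers Map2 was called higher and Syp lower. Their part in the result was not tested.

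The second comparison asked what loss of Cxcl5 does in 2D, where little moved. The beta sum was 30.7, 29.7 and 29.1 CPM in 2D Cxcl5-/- libraries and the gamma sum 59.2, 67.4 and 60.9 CPM. These values were 1.14 and 0.997 times the 2D WT means. Of 43 members tested, 3 rose and 1 fell, beside 3.86% and 3.17% of all genes tested.

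The 3 that rose were the beta genes Pcdhb17, Pcdhb21 and Pcdhb22. Pcdhb22 gave 4.33, 4.16 and 3.82 CPM in 2D WT and 6.27, 6.79 and 7.81 CPM in 2D Cxcl5-/- libraries (log2 change 0.76, SE 0.12, adjusted p = 0.00104). Pcdhb21 gave 3.16, 4.45 and 2.95 CPM against 6.27, 5.81 and 5.36 CPM in the 2D Cxcl5-/- libraries (log2 change 0.72, adjusted p = 0.00868). Pcdhb17 gave 5.35, 4.34 and 5.35 CPM in 2D Cxcl5-/- libraries, above all 3 WT values given before (log2 change 0.68, adjusted p = 0.00224). Pcdhb16 fell by 0.57 on the log2 scale (SE 0.12, adjusted p = 0.00835), with 3.91, 5.08 and 4.13 CPM in the 2D Cxcl5-/- libraries. Pcdhb21 was the leading beta member per kb in these libraries, with 21.4% of the beta level, where Pcdhb16 led with 24.2% in 2D WT. None of these 4 changes reached 1 on the log2 scale, and Pcdhgc3 differed by 0.04 (SE 0.12, adjusted p = 0.943).

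**Figure D2:**
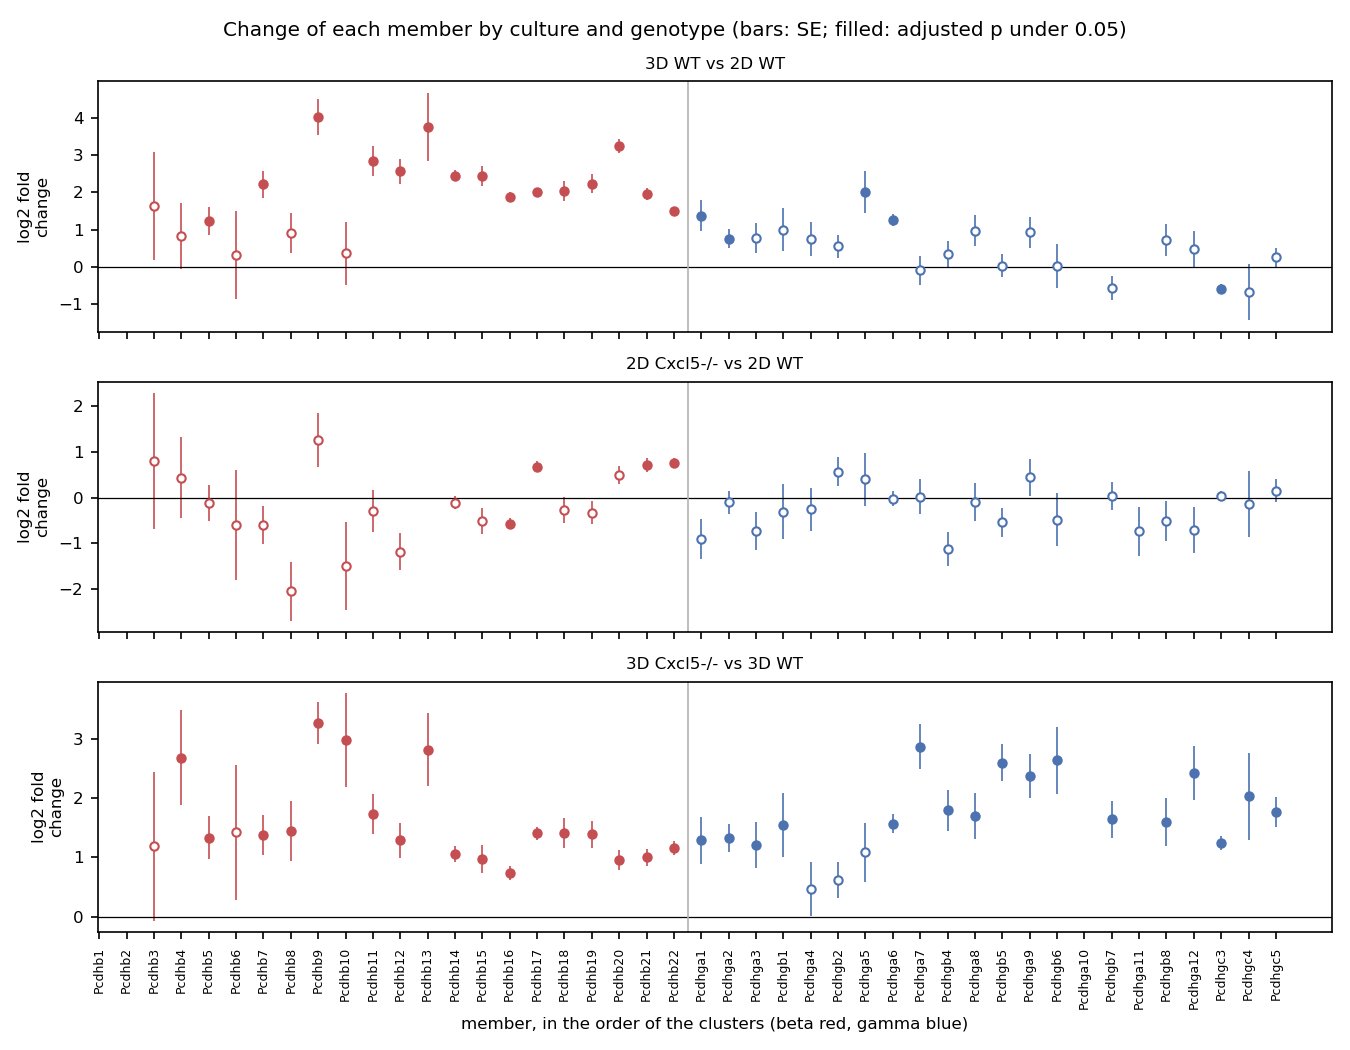
Log2 change of each beta (red) and gamma (blue) member, in the order of the clusters, with its SE, for 3D WT against 2D WT (top), 2D Cxcl5-/- against 2D WT (middle) and 3D libraries labelled Cxcl5-/- against 3D WT (bottom). Filled points have an adjusted p under 0.05, and members that were not tested, alpha members and members at 0 in every library of a group, such as Pcdhga11 in 3D WT, are not drawn. In the top panel 15 beta but 4 gamma members rise, and in the bottom panel most members of both clusters rise.

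In 3D the libraries labelled Cxcl5-/- stood above the WT libraries across both clusters. The beta sum was 242, 236 and 249 CPM against 99.2 to 112 CPM in 3D WT libraries, and the gamma sum was 133, 181 and 174 CPM against 57.6 to 61.4 CPM. These were 2.26 and 2.73 times the 3D WT means. Of 20 beta members tested 18 rose, of 21 gamma members 18 rose, and no member fell. Among all genes 19.7% rose and 25.3% fell in this comparison. The medians were 1.38 for beta members, 1.64 for gamma members and -0.04 for all genes tested.

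The members that did not pass the test were Pcdha9, Pcdhac2, Pcdhb3, Pcdhb6, Pcdhga4, Pcdhga5 and Pcdhgb2. Among beta members Pcdhb9 again had the largest change, with 11.8, 11.0 and 10.2 CPM in the 3D libraries labelled Cxcl5-/- (log2 change 3.27, SE 0.35, adjusted p = 5.67e-06). Pcdhb10 gave 0.0969, 0.0934 and 0.498 CPM in 3D WT and 1.97, 1.99 and 1.63 CPM in the 3D libraries labelled Cxcl5-/- (log2 change 2.98, SE 0.79, adjusted p = 0.00737). The abundant members changed less. Pcdhb16 reached 38.9, 40.5 and 40.7 CPM (log2 change 0.74, SE 0.11, adjusted p = 0.000127) and Pcdhb17 33.9, 32.1 and 34.0 CPM (1.40, SE 0.11, adjusted p = 3.74e-07). In each of these members the lowest Cxcl5-/- value exceeded the highest 3D WT value. For Pcdhb9 and Pcdhb10 this was a condition of choosing them by their change.

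Among gamma members all 3 types rose, namely 9 of 11 A-type, 6 of 7 B-type and all 3 C-type members tested. Pcdhgc3 gave 59.2, 82.5 and 78.3 CPM against 28.0 to 33.1 CPM in 3D WT libraries (log2 change 1.25, SE 0.12, adjusted p = 2.19e-06). Pcdhga6 gave 31.0, 39.2 and 44.2 CPM, all above the 3D WT values (1.56, SE 0.16, adjusted p = 4.13e-06). The C-type member Pcdhgc5 gave 1.59, 2.10 and 1.53 CPM in 3D WT and 4.13, 7.18 and 6.34 CPM in the 3D libraries labelled Cxcl5-/- (1.76, SE 0.26, adjusted p = 8.55e-05). Pcdhga7 and Pcdhgb5 had log2 changes of 2.87 (SE 0.38) and 2.60 (SE 0.31). Pcdhga11, absent from 3D WT libraries, had 1.32, 2.15 and 1.41 CPM, at least 26.7-fold higher (adjusted p = 1.64e-05). The number of members over 1 CPM went from 14 to 18 of 22 in the beta and from 8 to 20 of 22 in the gamma cluster.

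Markers of other cell types and states moved between these groups as well. The 6 fibroblast markers summed to 156 to 169 CPM in 3D WT and 396 to 453 CPM in the 3D libraries labelled Cxcl5-/-, with Pdgfra and Pdgfrb called higher, Col1a2, Dcn and Lum called lower, and none of the 6 at 0. The 8 ductal and epithelial markers summed to 855 to 1100 CPM in 3D WT and 223 to 240 CPM in the 3D libraries labelled Cxcl5-/-, where Epcam and Cdh1 were at 0. The 10 neuronal markers summed to 16.9 to 17.8 CPM and 13.9 to 17.5 CPM, nearly all of it Tubb3. Map2, the only one of them called, averaged 0.448 CPM in 3D WT and 2.06 CPM in the 3D libraries labelled Cxcl5-/- (log2 change 2.20, SE 0.44, adjusted p = 0.00113). Snap25 averaged 0.128 and 0.412 CPM, and Elavl4 was at 0 in the latter. The macrophage markers summed to 7.35 to 8.85 CPM in 3D WT and 14.6 to 23.9 CPM in the 3D libraries labelled Cxcl5-/-, with Lyz2 called higher by 2.11 on the log2 scale. Their part in the result was not tested. In bulk libraries fewer cells of a type and less RNA per cell cannot be told apart.

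The 3D libraries labelled Cxcl5-/- were set against 2D Cxcl5-/- libraries, with both groups shared with the comparisons above. Of the 43 members tested 38 rose in 3D and none fell, 18 of them in the beta, 19 in the gamma and 1 in the alpha cluster. The alpha member was Pcdhac2, at 0 in the 2D Cxcl5-/- libraries and with at most 17 counts in the 3D ones. In all, 28.7% of genes tested rose and 28.2% fell. The beta sum was 8.12 times and the gamma sum 2.61 times the 2D Cxcl5-/- mean. Pcdhb9 stood at 0.148, 0.306 and 0.0462 CPM in 2D Cxcl5-/- libraries, and its log2 change between 3D and 2D was 6.04 (SE 0.42, adjusted p = 5.18e-08).

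Pcdhgc3, which fell with 3D growth in WT cells, was higher by 0.63 on the log2 scale in the 3D libraries labelled Cxcl5-/- than in 2D Cxcl5-/- libraries (SE 0.12, adjusted p = 0.000425), from 44.8, 52.5 and 44.6 CPM in 2D. Pcdhga6 rose by 2.85 (SE 0.17, adjusted p = 1.23e-08), from 5.22, 4.47 and 6.13 CPM. Pcdhb13 had no count in the 2D Cxcl5-/- libraries and 1.01, 1.42 and 1.07 CPM in the 3D libraries labelled Cxcl5-/-, at least 25.3-fold higher (adjusted p = 1.74e-05).

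Between the same groups the fibroblast markers summed to 172 to 185 CPM in 2D Cxcl5-/- and 396 to 453 CPM in the 3D libraries labelled Cxcl5-/-, with 5 of 6 called higher. The ductal and epithelial markers summed to 452 to 487 CPM and 223 to 240 CPM, with Krt7, Krt8 and Krt18 called lower and Krt19 and Sox9 among those called higher. The macrophage markers summed to 6.04 to 7.87 CPM and 14.6 to 23.9 CPM, with Ptprc, Cd68 and Lyz2 called higher. The neuronal markers summed to 20.3 to 25.4 CPM and 13.9 to 17.5 CPM, with Map2, Snap25 and Stmn2 called higher and Tubb3 lower. Their part in the result was not tested.

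Whether the genotype effect differed between 3D and 2D was tested as an interaction. It was larger in 3D for 27 of 43 members (11 beta and 16 gamma) and smaller for none, beside 11.1% and 16.1% of all genes tested. For Pcdhgc3 the difference between the genotype effects was 1.21 on the log2 scale (SE 0.17, adjusted p = 0.000168), and for Pcdhb16, whose genotype effect changed sign between 2D and 3D, it was 1.31 (SE 0.16, adjusted p = 7.45e-05). Pcdhga6 differed by 1.59 (SE 0.23, adjusted p = 0.000238). Pcdhb20, Pcdhb21 and Pcdhb22, the last genes of the beta cluster, had differences of 0.46, 0.27 and 0.39 and did not pass the test. For Pcdhb9 the difference was 2.01 with an SE of 0.74 (adjusted p = 0.0587).

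**Figure D3:**
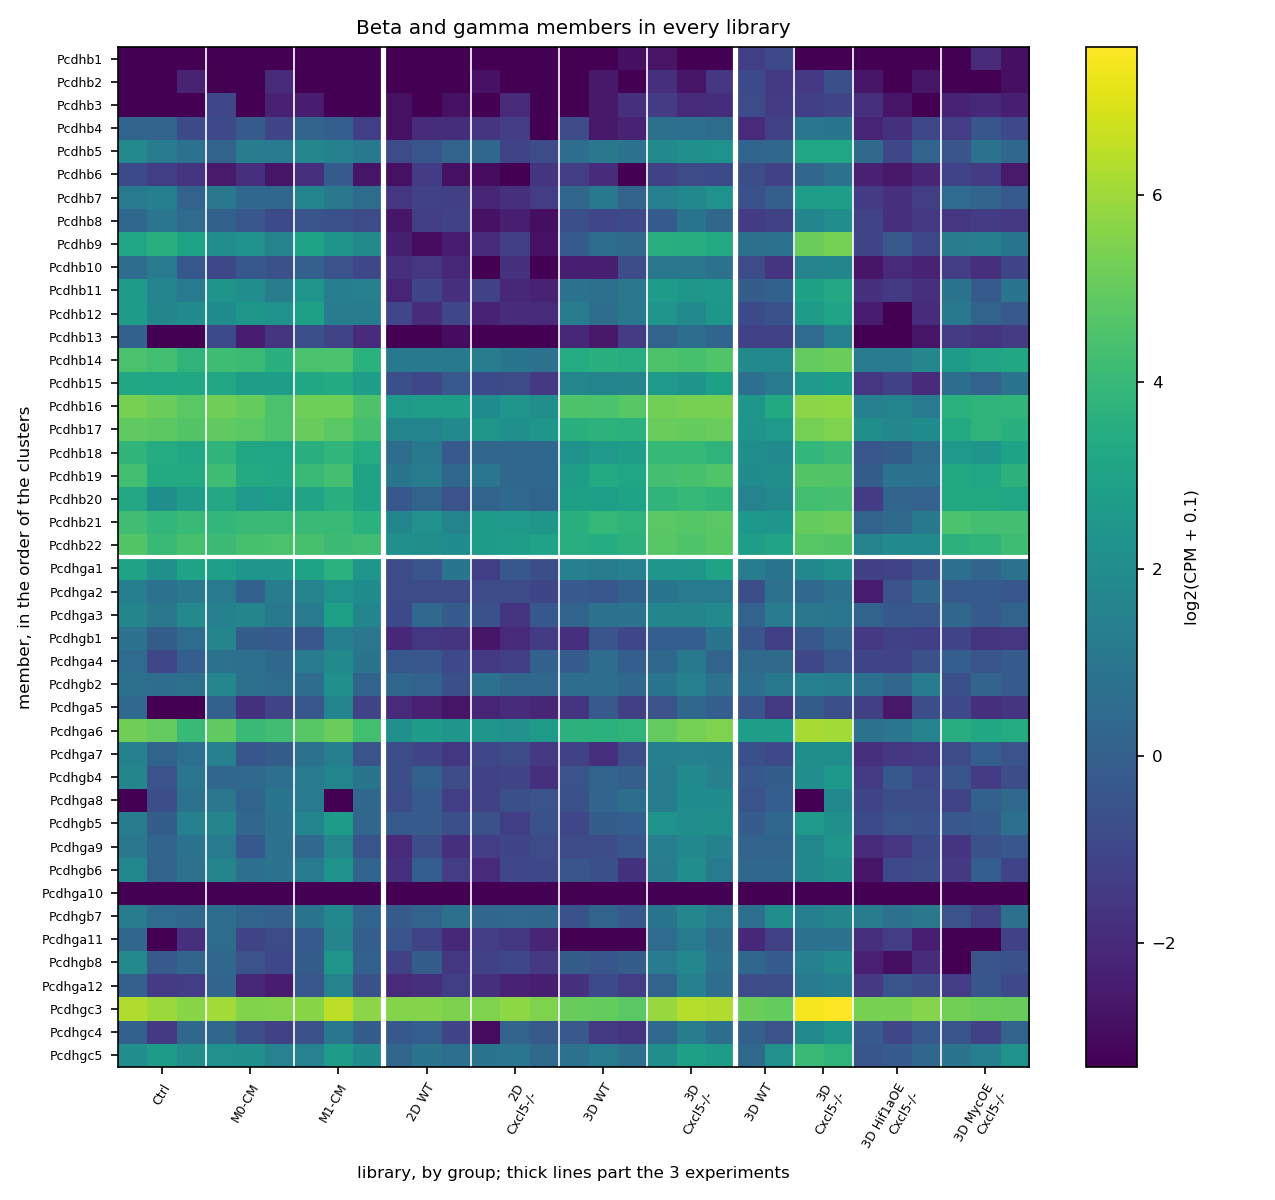
Level of every beta and gamma member (rows, in the order of the clusters, with a white line between the clusters) in each of the 31 libraries (columns, by group), as log2(CPM + 0.1) in colour. The 2D columns and the Hif1aOE Cxcl5-/- columns are dark over most members, the columns of 3D libraries labelled Cxcl5-/- are light, and Pcdhgc3 is light in every column.

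The rescue experiment held another comparison of Cxcl5-/- with WT cells in 3D, from separate libraries. The beta sum was 46.0 and 53.5 CPM in the WT and 321 and 348 CPM in the Cxcl5-/- libraries, 6.71 times as high. The gamma sum was 59.6 and 64.2 CPM against 308 and 328 CPM, 5.14 times as high. The alpha sum averaged 3.03 CPM in WT and 0.317 CPM in Cxcl5-/- libraries. Of 48 members tested 27 rose (18 of 22 beta and 9 of 21 gamma) and 3 fell, beside 17.6% and 24.3% of all genes. The median log2 change was 2.73 for beta members, 1.72 for gamma members and -0.30 for all genes tested.

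Pcdhb9 gave 1.54 and 1.56 CPM in WT and 34.4 and 39.2 CPM in Cxcl5-/- libraries (log2 change 4.56, SE 0.26, adjusted p = 3.59e-07), and became the leading beta member per kb with 16.6% of the beta level. Pcdhb16 gave 5.41 and 9.91 CPM in WT and 51.5 and 53.4 CPM in Cxcl5-/- libraries (2.77, SE 0.24, adjusted p = 6.7e-06). Pcdhb17 gave 4.90 and 5.76 CPM against 39.6 and 45.0 CPM (2.99, SE 0.18, adjusted p = 4.8e-07). In all 3 the genotypes were far apart beside the gap between libraries of a group.

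Pcdhgc3 rose from 34.7 and 32.1 CPM in WT to 175 and 192 CPM in Cxcl5-/- libraries (log2 change 2.46, SE 0.12, adjusted p = 1.26e-07). Pcdhga6 rose from 6.84 and 6.70 CPM to 72.5 and 67.5 CPM (3.37, SE 0.21, adjusted p = 5.66e-07). The C-type members Pcdhgc4 and Pcdhgc5 rose by 2.51 and 2.39 on the log2 scale, so all 3 gamma C-type members were called. Of the first gamma genes in the cluster, Pcdhga1, Pcdhga2 and Pcdhga3 had log2 changes of 0.89, 0.49 and 0.30 and none of them passed the test. Pcdhga8 had no count in 1 Cxcl5-/- library and 3.33 CPM in the other.

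The 3 members that fell were low ones. Pcdhb1 stood at 0.309 and 0.435 CPM in WT libraries and at 0 in Cxcl5-/- libraries (at least 6.04-fold lower, adjusted p = 0.0469), and Pcdha6 at 0.419 and 0.283 CPM against 0 (at least 5.7-fold lower, adjusted p = 0.0482). Pcdhga4 gave 1.26 and 1.28 CPM against 0.415 and 0.67 CPM (log2 change -1.22, SE 0.45, adjusted p = 0.0474). The WT libraries of this experiment had the most reads in receptor genes, and 14 of 14 alpha, 12 of 22 beta and 17 of 22 gamma members lay under 3 times that level there, against 14, 1 and 1 in the Cxcl5-/- libraries. With the expected stray reads subtracted as before, 30 members rose and none fell of 42 tested, and with no filter on low counts 27 rose and none fell. The shares of all genes called in these alternative fits are not given here.

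The fibroblast markers summed to 77.0 to 81.4 CPM in WT and 458 to 466 CPM in Cxcl5-/- libraries of the rescue experiment, with 5 of 6 called higher and none at 0. The ductal and epithelial markers summed to 861 to 907 CPM and 294 to 310 CPM, with Epcam at 0 in the Cxcl5-/- libraries. The neuronal markers summed to 15.5 to 17.3 CPM and 53.3 to 57.3 CPM, of which Map2 made 42.2 CPM in Cxcl5-/- libraries, while Snap25 averaged 1.03 and 0.165 CPM, and Rbfox3 and Elavl4 were at 0 in the Cxcl5-/- libraries. Map2 and Tubb3 were called higher and Syt1 and Rbfox3 lower. The macrophage markers summed to 14.2 to 14.4 CPM and 14.8 to 15.7 CPM, with Cd68 called higher and Ptprc and Adgre1 lower. The endothelial markers averaged 2.95 CPM in WT and 0.328 CPM in Cxcl5-/- libraries in sum, with Pecam1, Cdh5 and Kdr called lower. Their part in the result was not tested.

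These libraries share no control with those of the culture experiment, so the calls can be set side by side. Of 42 members tested in both, 36 were higher in the 3D libraries labelled Cxcl5-/- than in 3D WT libraries of the culture experiment and 27 in Cxcl5-/- than in WT libraries of the rescue experiment, and 27 in both, which is 75% of the former and 100% of the latter. Among all 21058 genes tested in both, the shared calls made up 69.4% of the 4207 higher in the culture experiment and 58.4% of the 4995 higher in the rescue experiment. All 18 beta members called in one experiment were called in the other. The 9 members called higher in the culture experiment alone were all of gamma A or B type: Pcdhga1, Pcdhga2, Pcdhga3, Pcdhga8, Pcdhga11, Pcdhgb1, Pcdhgb6, Pcdhgb7 and Pcdhgb8. Whether their changes differed between the experiments was not tested.

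**Figure D4:**
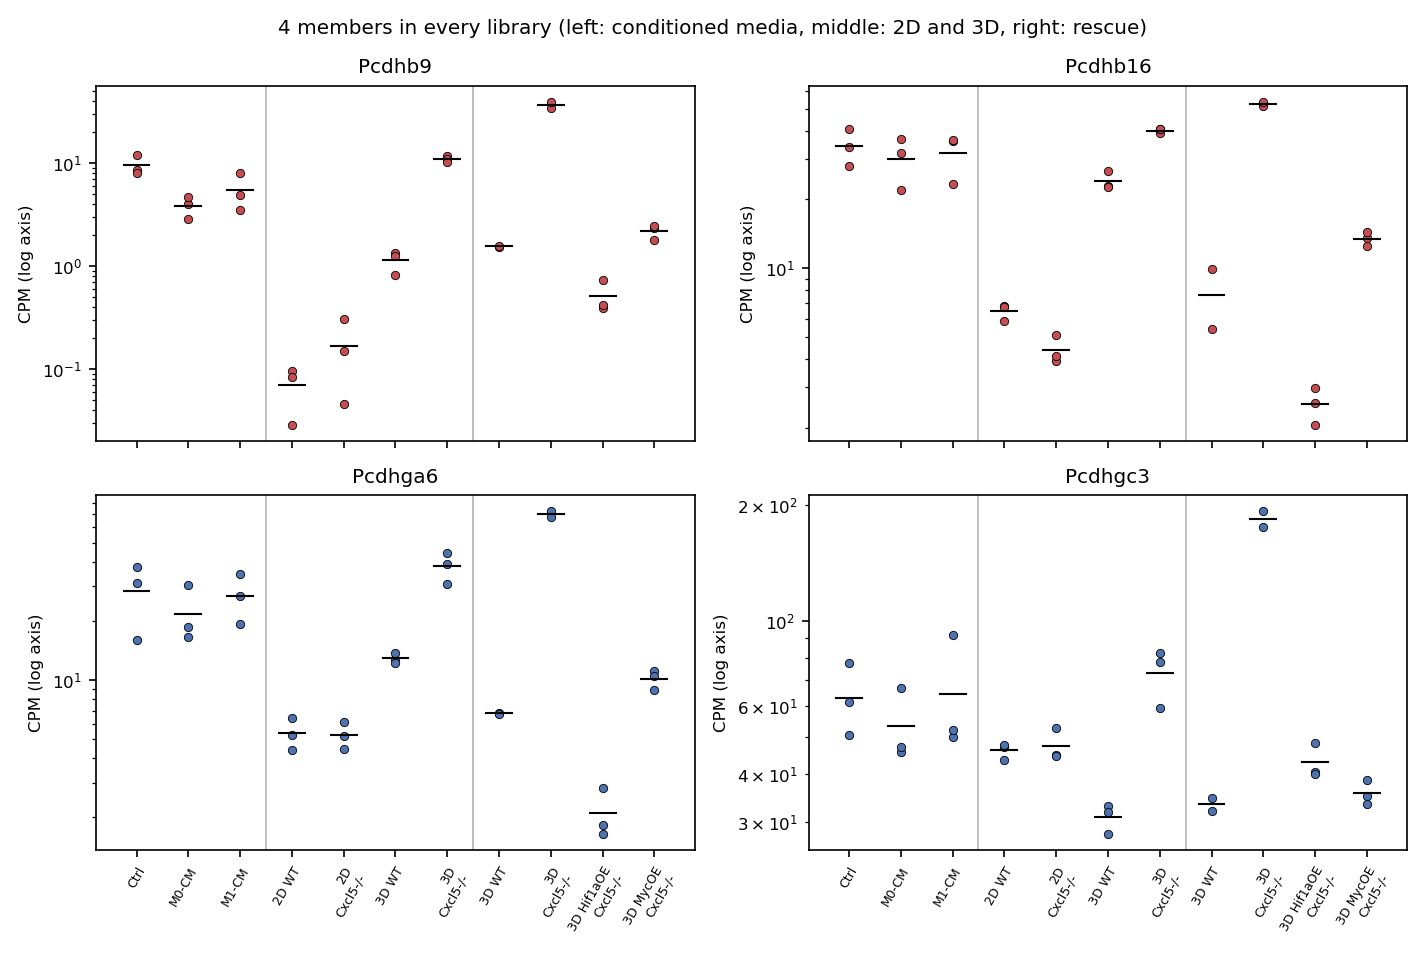
Level in CPM (log axis) of Pcdhb9, Pcdhb16, Pcdhga6 and Pcdhgc3 in every library (points, with a line at the group mean), by group on the horizontal axis, with grey lines between the 3 experiments. Pcdhb9 lies under 0.1 CPM in 2D WT libraries of the culture experiment and reaches 39.2 CPM in a Cxcl5-/- library of the rescue experiment. Pcdhgc3 stays between 28.0 and 192 CPM. These values describe the range drawn, since levels of different experiments are not compared.

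The last question was what overexpression of Hif1a or Myc does to these genes in Cxcl5-/- cells grown in 3D. Both comparisons use the same 2 Cxcl5-/- libraries as control, which are also those of the comparison with WT. With Hif1a the beta sum was 17.8, 19.5 and 22.0 CPM, 16.9-fold below the Cxcl5-/- mean, and the gamma sum was 51.7, 52.0 and 64.5 CPM, 5.67-fold below it. With Myc the beta sum was 100, 103 and 112 CPM, 3.18-fold below, and the gamma sum was 61.2, 57.4 and 62.6 CPM, 5.26-fold below. The WT libraries of the same experiment averaged 49.8 CPM for beta and 61.9 CPM for gamma. Gamma sums of both overexpressing groups thus lay around the WT values. Beta sums were 2.52-fold below the WT mean with Hif1a and 2.11-fold above it with Myc. Without Pcdhgc3 the gamma sum averaged 28.5 CPM in WT, 13.2 CPM with Hif1a and 24.7 CPM with Myc libraries. That was 2.16-fold below the WT mean with Hif1a and 1.15-fold below it with Myc, so the full gamma sum hid lower members with Hif1a. Per kb of exon, beta counts were 4.26 and 4.92 times those of receptor genes in WT libraries and 6.16 to 10.1 times with Hif1a. With Myc they were 36.1 to 59.2 times as high. The sums were not corrected for such stray reads.

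Hif1aOE Cxcl5-/- libraries had 34 of 48 members lower than Cxcl5-/- libraries and none higher, where 15% of all genes tested fell and 20.5% rose. The members that fell were 19 of 22 beta, 14 of 21 gamma and Pcdha1, which had at most 5 counts. The medians were -4.12 for beta members, -2.78 for gamma members and 0.16 for all genes tested. Pcdhb9 was at 0.392, 0.734 and 0.416 CPM, a log2 change of -6.15 (SE 0.24, adjusted p = 4.86e-08). Pcdhb12 went from 6.39 and 8.06 CPM in Cxcl5-/- to 0.0784, 0 and 0.163 CPM (-6.46, SE 0.68, adjusted p = 2.46e-05). Both groups of libraries were far apart for each of them.

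Pcdhb16 was at 2.57, 2.97 and 2.06 CPM with Hif1a (log2 change -4.37, SE 0.23) and Pcdhb17 at 4.18, 3.18 and 3.90 CPM (-3.50, SE 0.16). Pcdhb17 was then the leading beta member per kb, with 20.6% of the beta level. Pcdhga6 was at 1.65, 1.83 and 2.82 CPM (-5.05, SE 0.19, adjusted p = 4.51e-08). Pcdhgc3 was at 40.4, 40.1 and 48.1 CPM (-2.10, SE 0.10, adjusted p = 1.44e-07), and made up 75.2% of the gamma level per kb. In these libraries 11 beta and 12 gamma members lay under 3 times the level of reads in receptor genes. With stray reads subtracted 35 members fell of 42 tested, again without the share of all genes beside it.

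MycOE Cxcl5-/- libraries had 37 of 48 members lower than Cxcl5-/- libraries and none higher, where 18% of all genes tested fell and 21.6% rose. The members that fell were 20 of 22 beta, 16 of 21 gamma and Pcdha1, and without replicate 2 of the Cxcl5-/- libraries the count was 26. The medians were -2.13 for beta members, -2.34 for gamma members and 0.11 for all genes tested. Pcdhb9 was at 2.37, 2.44 and 1.80 CPM (log2 change -4.07, SE 0.22, adjusted p = 2e-07). Pcdhga6 was at 11.1, 8.89 and 10.5 CPM (-2.78, SE 0.17, adjusted p = 5.42e-07) and Pcdhgc3 at 38.7, 35.1 and 33.5 CPM (-2.36, SE 0.10, adjusted p = 5e-08). No value of these 3 members reached that of a Cxcl5-/- library.

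Under Myc the size of the fall differed along the beta cluster. The first 10 beta members from the alpha side had a median log2 change of -2.79 and the last 10 a median of -1.60. Of the beta members called, the last 3 genes changed least. Pcdhb21 went from 32.4 and 33.7 CPM to 22.2, 19.9 and 19.7 CPM (-0.68, SE 0.19, adjusted p = 0.0128), and Pcdhb22 from 26.6 and 25.2 CPM to 12.7, 14.1 and 18.1 CPM (-0.79, SE 0.17, adjusted p = 0.00255). With Hif1a the medians were -3.50 and -4.26, so the order along the cluster was not the same. Levels per kb also tended to be higher toward that end of the cluster, so position and level cannot be told apart here.

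**Figure D5:**
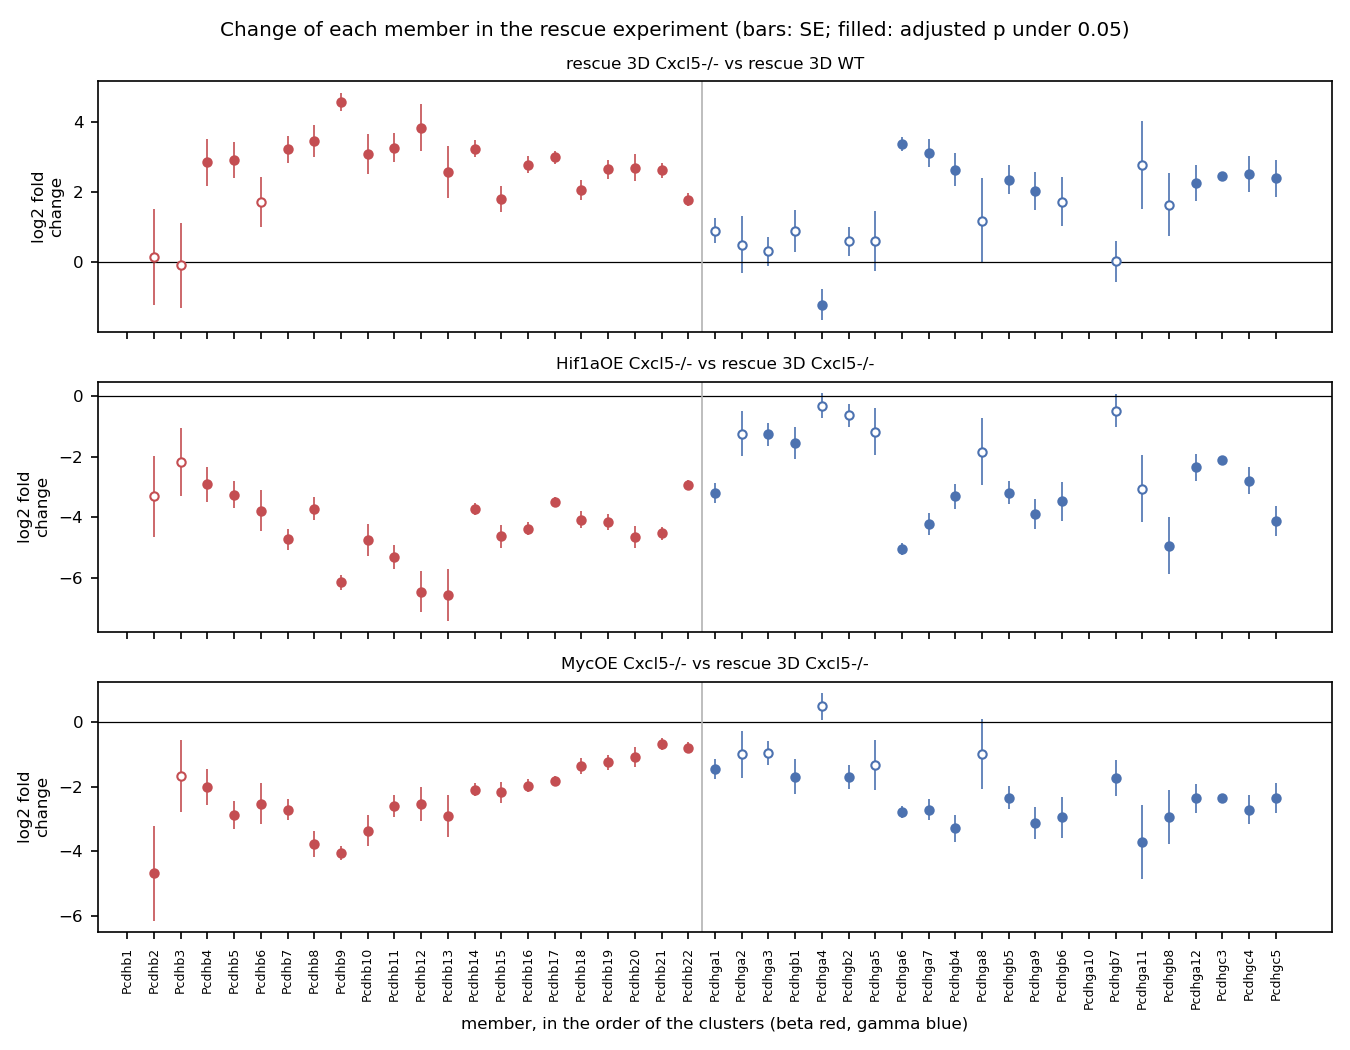
Log2 change of each beta (red) and gamma (blue) member, in the order of the clusters, with its SE, for Cxcl5-/- against WT (top), Hif1aOE Cxcl5-/- against Cxcl5-/- (middle) and MycOE Cxcl5-/- against Cxcl5-/- (bottom) in the rescue experiment. Filled points have an adjusted p under 0.05, and alpha members, members not tested and members at 0 in every library of a group are not drawn. The top panel lies mostly above 0 and both others under it, with the last beta genes closest to 0 in the bottom panel.

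The difference between both overexpressing groups was tested directly. Of 48 members 18 were higher with Myc than with Hif1a and none lower, beside 9.54% and 9.73% of all genes tested. Among them were 14 of 22 beta members but only Pcdhga1, Pcdhga6, Pcdhga7 and Pcdhgc5 of 21 gamma members, with medians of 2.11 and 0.31. Pcdhb21 was at 1.00, 1.28 and 2.02 CPM with Hif1a, below all values with Myc given before (log2 change 3.84, SE 0.20, adjusted p = 2.97e-07). Pcdhb20 differed by 3.58 (SE 0.33, adjusted p = 2.2e-05). Pcdhgc3 differed by -0.26 (SE 0.09, adjusted p = 0.072).

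Marker sums moved between these groups too. The fibroblast markers summed to 136 to 173 CPM with Hif1a and 312 to 343 CPM with Myc, and the 5 called lower with Hif1a and 3 with Myc were among 6 with none at 0. Pdgfra averaged 110 CPM in Cxcl5-/-, 5.77 CPM in Hif1aOE Cxcl5-/- and 149 CPM in MycOE Cxcl5-/- libraries. The neuronal markers summed to 20.9 to 22.8 CPM with Hif1a and 5.98 to 6.31 CPM with Myc, mostly Tubb3. The ductal and epithelial markers summed to 709 to 841 CPM and 271 to 315 CPM. Their part in the result was not tested.

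Conditioned medium was compared last. No member passed the test (adjusted p under 0.05 with an absolute log2 change above 1) in M1-CM against Ctrl, M1-CM against M0-CM or M0-CM against Ctrl, by edgeR or by DESeq2. Few genes did at all, with 0.0156% of 19207 higher and 0% lower in each M1-CM comparison and 0% either way in M0-CM against Ctrl. At an unadjusted p under 0.05 there were 4 of 41 members in M1-CM against Ctrl, 1 in M1-CM against M0-CM and 3 in M0-CM against Ctrl. Of the 19207 genes, 586 were higher and 317 lower at that level in M1-CM against Ctrl, 309 and 189 in M1-CM against M0-CM, and 412 and 157 in M0-CM against Ctrl. The beta sum was 184 ± 32.4 CPM in Ctrl, 165 ± 22.7 CPM in M0-CM and 177 ± 38.1 CPM in M1-CM libraries, and the gamma sum was 127 ± 30.3, 108 ± 29.6 and 141 ± 56.7 CPM (SD, n = 3 each).

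The libraries of these groups overlapped for both sums. The widest gap within a group was in the gamma cluster, where 1 M1-CM library reached 206 CPM against 114 and 103 CPM in the others. Pcdhgc3 stood at 77.5, 61.4 and 50.5 CPM in Ctrl, 66.7, 45.6 and 47.1 CPM in M0-CM and 49.9, 91.7 and 52.1 CPM in M1-CM libraries. Pcdhb9 stood at 8.67, 12 and 8.0 CPM in Ctrl and 4.02, 4.72 and 2.89 CPM in M0-CM libraries, which did not overlap, and at 7.99, 4.86 and 3.55 CPM in M1-CM libraries. Its log2 change in M0-CM against Ctrl was -1.30 (SE 0.33), with an adjusted p of 1 by edgeR and 0.101 by DESeq2.

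Genes that act with the family were read from the same fits. Of 20 regulators of promoter choice, among them Ctcf, cohesin subunits and DNA methyltransferases, none rose and 12 fell in 3D WT against 2D WT, where 22.2% and 22% of all genes tested did, and 5 rose and 7 fell in the 3D libraries labelled Cxcl5-/- against 3D WT, beside 19.7% and 25.3%. In the rescue experiment 8 rose and 2 fell in Cxcl5-/- against WT, beside 17.6% and 24.3%. With overexpression 2 rose and 5 fell in each group against Cxcl5-/-, beside 20.5% and 15% with Hif1a and 21.6% and 18% with Myc. Ctcf, whose protein binds the promoters, fell by 0.81 on the log2 scale in 3D WT (SE 0.09, adjusted p = 5.98e-06). Wapl, which releases cohesin from DNA, changed by -0.45 in that comparison, rose by 0.55 in the 3D libraries labelled Cxcl5-/- against 3D WT and by 0.98 in Cxcl5-/- against WT of the rescue experiment, and fell with Hif1a and Myc by 0.94 and 0.95. Dnmt3a, a DNA methyltransferase, rose by 0.61 and 0.87 in the same comparisons and fell by 1.13 with Hif1a, and gave -0.07 (adjusted p = 0.702) with Myc. Dnmt1, which maintains methylation when DNA is copied, fell by 1.10 in 3D WT against 2D WT and by 0.72 and 0.46 in the comparisons of Dnmt3a, and rose by 0.55 with Hif1a and by 0.45 with Myc.

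Of 17 cytoplasmic partners and proteases of protocadherins, 4 rose and 4 fell in 3D WT against 2D WT, 4 rose and 5 fell in the 3D libraries labelled Cxcl5-/- against 3D WT, and 6 rose and 1 fell in Cxcl5-/- against WT in the rescue experiment. The shares of all genes tested are the ones given beside the regulators. Adam10, a protease that sheds the extracellular part of cadherins, rose by 0.76 in the 3D libraries labelled Cxcl5-/- against 3D WT and by 0.89 in Cxcl5-/- against WT of the rescue experiment, and fell by 0.58 with Hif1a and by 0.93 with Myc. Ptk2b, a kinase that binds the common gamma end, rose by 0.83 in Cxcl5-/- libraries of the rescue experiment and fell by 1.14 with Hif1a and by 2.55 with Myc. In the culture experiment it was not called in the 3D libraries labelled Cxcl5-/- against 3D WT. It was called higher in 2D Cxcl5-/- against 2D WT, where few members moved, and in 3D against 2D for both genotypes.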

How the data were processed

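Gene counts of 31 libraries were analysed in 3 tables of 9, 12 and 10 libraries. The authors made stranded total RNA libraries, aligned the read pairs to GRCm38 with HISAT2 and deposited raw gene counts from StringTie. The annotation release, the counting step and the versions are not given in the sources used here. The labels of the rescue libraries give a running cell line name, and Panc02 was taken from the study's methods. Rows without a symbol (0, 1542 and 310) were kept in the fits, and all value columns were used.

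Counts were tested with edgeR 4.0.16 in R 4.3.3 (quasi-likelihood, TMM scaling, filterByExpr by group, 1 fit per table with all its groups, Benjamini-Hochberg over all genes tested). Calls needed an adjusted p under 0.05, with more than a 2-fold change also required for conditioned media. The SE is the size of the log2 change divided by the square root of F. DESeq2 1.42.0 served as an alternative. Exon coordinates came from GENCODE M21. Folds against groups at 0 are bounds against 3 counts per library. Cluster sums are summed CPM without a test. Python 3.11.15, numpy 2.4.6, pandas 2.3.3 and matplotlib 3.10.9 handled tables and plots.

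The members and the gene lists were chosen with earlier results of these data known. Values in every library were given for the most abundant members of each type, for called members with the largest changes whose groups did not overlap, and for Pcdhb9, which is among the genes the study names. For members picked by their change between groups, the lack of overlap was a condition of the choice and is no further result. No 2 libraries of a group agreed within sampling noise. Among the conditioned media counts, 2 entries share the symbol Pcdha11, and both were kept.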

Additional observations from a re-analysis of the deposited data

Results flagged for a closer look

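The effect of genotype differed between 3D and 2D culture, by a test of the difference itself, in 27 of 43 members (edgeR quasi-likelihood test, adjusted p under 0.05). The differences on the log2 scale among members described by library were 3.49 for Pcdhb8, 4.48 for Pcdhb10, 2.47 for Pcdhb12, 1.31 for Pcdhb16 and 0.72 for Pcdhb17 in the beta cluster. In the gamma cluster they were 2.19 for Pcdhga1, 1.59 for Pcdhga6, 3.14 for Pcdhgb5, 1.21 for Pcdhgc3 and 1.61 for Pcdhgc5. Pcdhga11 differed with an adjusted p of 0.000123, and no fold is given because the 3D WT libraries had no count.

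Pcdhb8 stood at 0.0578, 0.302 and 0.348 CPM in 2D WT, 0.0445, 0.0965 and 0.0308 CPM in 2D Cxcl5-/-, 0.543, 0.397 and 0.424 CPM in 3D WT and 0.805, 1.80 and 1.11 CPM in the 3D libraries labelled Cxcl5-/-. Pcdhb12 stood at 0.405, 0.158 and 0.403 CPM, 0.104, 0.161 and 0.154 CPM, 2.29, 1.45 and 1.94 CPM, and 4.99, 3.52 and 5.34 CPM in the same order of groups. For both, the values of the 3D libraries labelled Cxcl5-/- were the highest of all 4 groups. Pcdhb10 was at 0.173, 0.23 and 0.139 CPM in 2D WT and at 0, 0.193 and 0 CPM in 2D Cxcl5-/- libraries, so its difference rests on very few counts in 2D. Pcdhga1 stood at 0.462, 0.604 and 1.78 CPM in 2D WT, 0.311, 0.708 and 0.524 CPM in 2D Cxcl5-/-, 2.56, 2.36 and 2.56 CPM in 3D WT and 5.07, 5.44 and 7.77 CPM in the 3D libraries labelled Cxcl5-/-.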

How the results depend on the processing

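No member described by library reversed a call under any alternative run. Counts of members called under alternative runs stand without the share of all genes called in the same run. The median log2 change of the members crossed 0 in 3 comparisons with few or no calls, namely M1-CM against Ctrl (0.15, and -0.09 without M1-CM replicate 2), M0-CM against Ctrl (-0.18, and 0.04 without Ctrl replicate 1) and 2D Cxcl5-/- against 2D WT (-0.26, and 0.04 without 2D WT replicate 2). With an absolute log2 fold change above 1 required, the count in 2D Cxcl5-/- against 2D WT went from 4 to 0. Requiring 10 counts in every library left 23 members to test, of which 21 were called in 3D Cxcl5-/- against 3D WT and 23 in 3D Cxcl5-/- against 2D Cxcl5-/-. Members were also kept only where expected stray reads were under 10% of the mean count, both averaged over all libraries of the experiment. Single libraries were not checked for this. It left 18 members in the rescue experiment, of which 17 were called in Cxcl5-/- against WT, 17 with Hif1a and 18 with Myc. These counts are lower because fewer members were tested. Scaling by library totals gave beta sums of 92.2 CPM in 3D WT, 274 in 3D Cxcl5-/-, 378 in rescue Cxcl5-/- and 94.2 in MycOE Cxcl5-/- libraries, and gamma sums of 51.6 in 3D WT, 67.8 in rescue WT, 360 in rescue Cxcl5-/- and 54.1 in MycOE Cxcl5-/- libraries. It moved the median of all genes to -0.21 in 3D WT against 2D WT and to 0.35 in 3D Cxcl5-/- against 3D WT, where 21 and 38 members were called.

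Leaving out single libraries gave 3 to 6 calls in 2D Cxcl5-/- against 2D WT, 20 to 25 in 3D WT against 2D WT, 31 to 36 in 3D Cxcl5-/- against 3D WT, 36 to 39 in 3D Cxcl5-/- against 2D Cxcl5-/- and 22 to 29 for the interaction. In the rescue experiment it gave 24 to 32 in Cxcl5-/- against WT, 31 to 35 with Hif1a, 26 to 37 with Myc and 17 to 19 between both, where a group left with 1 library was assumed to vary like the others. In the conditioned media it gave 0 throughout.

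Deviations of libraries with the same replicate number correlated at 0.037, 0.025 and 0.004 on average in the 3 experiments. Single pairs ran from -0.236 to 0.359, from -0.096 to 0.18 and from -0.025 to 0.05. Libraries with other numbers averaged -0.019, -0.012 and -0.002. Averages this low give little sign that the numbers pair the libraries. With the number as a replicate block the counts were 0 in each comparison of conditioned media, 24, 5, 35, 38 and 28 in the culture experiment in the order 3D WT against 2D WT, 2D Cxcl5-/- against 2D WT, 3D Cxcl5-/- against 3D WT, 3D against 2D Cxcl5-/- and interaction, and 28, 33, 35 and 20 in the rescue experiment. The block ended the calls of the 3 members lower in Cxcl5-/- against WT of the rescue experiment. DESeq2 gave 23, 4, 36, 38, 30, 29, 35, 36 and 19 in the same order. Depth limits the alpha cluster, with at most 27 counts a member, and the split of reads among gamma members limits single gamma values. For the interaction a fit of only the groups compared is the fit of all groups.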

Other observations

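Protocadherins outside the clusters have their own loci. Of 15 such genes 7 were tested in the culture experiment, and 5 rose and 1 fell in 3D WT against 2D WT, beside 22.2% and 22% of all genes tested. In the 3D libraries labelled Cxcl5-/- against 3D WT, Pcdh7 alone passed the edgeR test (log2 fold change 1.28, SE 0.47, adjusted p = 0.0402). Among all genes 19.7% rose and 25.3% fell in that comparison. In the rescue experiment 14 were tested, and 2 rose in Cxcl5-/- against WT, Pcdh7 by 3.08 and Pcdh19 by 1.94 on the log2 scale. Pcdh15, Pcdh17 and Pcdh18 fell, against WT libraries with the most reads in receptor genes. Of all genes tested 17.6% rose and 24.3% fell between these groups. Pcdh19 fell with Hif1a by 1.54 and with Myc by 3.20.

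The 16 genes on either side of the clusters were all tested. In 3D WT against 2D WT 2 of them rose and 8 fell, beside 22.2% and 22% of all genes tested. In the 3D libraries labelled Cxcl5-/- against 3D WT none rose and 6 fell, beside 19.7% and 25.3%. In Cxcl5-/- against WT of the rescue experiment 1 rose and 4 fell, beside 17.6% and 24.3%. With Hif1a 5 rose and 4 fell, beside 20.5% and 15%, and with Myc 8 rose and 3 fell, beside 21.6% and 18%. Diaph1 fell by 1.15 with Hif1a and by 1.27 with Myc.

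The acinar markers summed to 0.679 to 1.93 CPM as group means, the endothelial markers to at most 2.95 CPM and the macrophage markers to 2.33 to 22.4 CPM.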
